A study of Mus musculus with 8 samples.

Results

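Of the 26263 mouse genes in the count table, 10 were followed here because they mark the endothelial and blood lineages. They were the vascular receptors *Kdr*, *Flt1*, *Tek* and *Tie1*, the endothelial surface and secreted products *Pecam1* and *Vwf*, and the transcription factors *Etv2*, *Tal1*, *Gata1* and *Runx1*, taken by symbol. Poly(A) RNA-seq had been done on embryonic stem cells (ESCs) and on neural precursor cells (NPCs) at day 12 of an *in vitro* corticogenesis. B/J cells (line BJE2) came from C57BL/6 mothers and JF1 fathers. J/B cells (line JBE6) came from the reciprocal cross. Each cross was thus a single male hybrid line, and each of the 4 groups had 2 replicates. ESCs were kept in medium with LIF, BMP4 and a GSK3-β inhibitor. NPCs of both lines were grown on Matrigel with a dorsomorphin homolog, a BMP pathway inhibitor, in the medium. No sorting of cells is stated, and neither endothelial nor blood cells were a labelled group. The libraries held between 22537138 and 32706015 reads on genes. The sources used here do not say whether replicates came from separate differentiations, so p-values measure the spread between these libraries only.

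Blood vessels and the first blood cells of the embryo arise from mesoderm. The ETS factor *Etv2* acts at the entry into both lineages, *Tal1*, *Gata1* and *Runx1* then act in blood formation, and VEGF signals through *Kdr* (VEGFR2) to build vessels, while *Flt1* (VEGFR1) binds VEGF tightly and restrains it. Angiopoietins signal through *Tek* (TIE2) with the related receptor *Tie1*, *Pecam1* sits at endothelial junctions and *Vwf* is the clotting factor carrier that endothelium and platelets make. Several of these genes are also used elsewhere: *Flt1* is made by placental trophoblast, *Pecam1* is on mouse ESCs, and *Tal1* is used by some GABAergic neurons of the midbrain and spinal cord.

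The 250 bases before the start of transcription are printed for the genes on which the results turn and for which RefSeq gave a window, so that the 4 receptors can be read beside *Etv2*, a factor of the ETS family. Windows of 8 of the 10 genes, all but *Pecam1* and *Vwf*, were taken from the RefSeq table and matched without mismatch to GRCm39. The capitals mark the core letters bound by ETS factors, GGAA or, on the other strand, TTCC. The windows lie at chr5:147662822-147663071 on the minus strand (*Flt1*), chr5:76139116-76139365 on the minus strand (*Kdr*), chr4:94627276-94627525 on the plus strand (*Tek*), chr4:118347047-118347296 on the minus strand (*Tie1*) and chr7:30335278-30335527 on the minus strand (*Etv2*). RefSeq's starts differ from the outermost GENCODE ones, so the windows of *Kdr* and *Etv2* lie inside the GENCODE gene spans and those of *Flt1*, *Tek* and *Tie1* overlap them in part.
*Flt1*: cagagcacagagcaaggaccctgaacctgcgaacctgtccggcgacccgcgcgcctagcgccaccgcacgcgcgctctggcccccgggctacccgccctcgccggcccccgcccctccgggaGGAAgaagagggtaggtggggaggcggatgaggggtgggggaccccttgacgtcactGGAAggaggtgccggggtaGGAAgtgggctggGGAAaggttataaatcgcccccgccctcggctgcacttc
*Kdr*: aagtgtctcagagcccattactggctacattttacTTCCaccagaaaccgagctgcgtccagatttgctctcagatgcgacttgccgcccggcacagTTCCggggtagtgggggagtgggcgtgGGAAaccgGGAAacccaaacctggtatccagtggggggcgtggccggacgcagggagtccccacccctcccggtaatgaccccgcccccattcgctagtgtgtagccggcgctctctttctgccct
*Tek*: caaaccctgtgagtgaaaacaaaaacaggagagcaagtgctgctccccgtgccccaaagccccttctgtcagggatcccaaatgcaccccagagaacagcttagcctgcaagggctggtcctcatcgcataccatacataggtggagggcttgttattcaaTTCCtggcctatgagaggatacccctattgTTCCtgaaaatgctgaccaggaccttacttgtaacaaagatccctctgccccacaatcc
*Tie1*: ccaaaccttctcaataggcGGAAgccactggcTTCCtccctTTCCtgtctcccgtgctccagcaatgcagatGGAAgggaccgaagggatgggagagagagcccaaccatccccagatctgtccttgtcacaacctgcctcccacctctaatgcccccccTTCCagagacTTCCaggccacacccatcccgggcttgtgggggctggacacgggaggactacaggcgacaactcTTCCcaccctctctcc
*Etv2*: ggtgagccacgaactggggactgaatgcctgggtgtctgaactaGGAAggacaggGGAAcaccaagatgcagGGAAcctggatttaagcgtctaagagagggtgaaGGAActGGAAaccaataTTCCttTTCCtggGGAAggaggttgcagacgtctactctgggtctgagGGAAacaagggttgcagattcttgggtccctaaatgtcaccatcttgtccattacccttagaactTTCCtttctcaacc

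The core was present 4 times in the window of *Flt1*, 4 times in that of *Kdr*, 2 times in that of *Tek*, 7 times in that of *Tie1* and 10 times in that of *Etv2*. Among 32851 RefSeq windows of the same length, 93.4% held at least 1 such core, with a median of 3. The GATA letters GATAA, searched on both strands, were in 22.6% of all windows and in 1 of the 10 windows of these genes, 1 of the 2 windows of *Tal1*. The E-box letters CANNTG were in 66.2% of all windows and in those of *Kdr*, *Tek* and *Tie1*, but not of *Flt1* or *Etv2*. In the *Tie1* window an ETS core and an E-box overlapped. These matches describe the letters only.

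Between ESCs and NPCs, the VEGF receptors *Flt1* and *Kdr* and the blood factors *Runx1* and *Tal1* rose, and *Etv2* and *Pecam1* fell. *Tek*, *Tie1*, *Vwf* and *Gata1* did not pass the test. Thus 4 of 10 genes were higher, where 37.5% of the 16399 genes tested were called higher, and 2 of 10 were lower, where 31.9% of all were called lower. A gene was called where edgeR gave an adjusted p (Benjamini-Hochberg, over all genes tested) under the 0.05 threshold. Every NPC library was above every ESC library for 5 genes, *Flt1*, *Kdr*, *Tal1*, *Gata1* and *Runx1*, as for 46.7% of all genes, and below every ESC library for *Pecam1* and *Etv2*, as for 20.5% of all genes. The shares of these genes that were called are thus close to what the whole table gave, so the account below is of single genes and their sizes. Levels are given in CPM, which are counts scaled to equal library totals. In bulk RNA, a change in the number of cells of a type cannot be told apart from a change in RNA per cell.

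**Figure D1:**
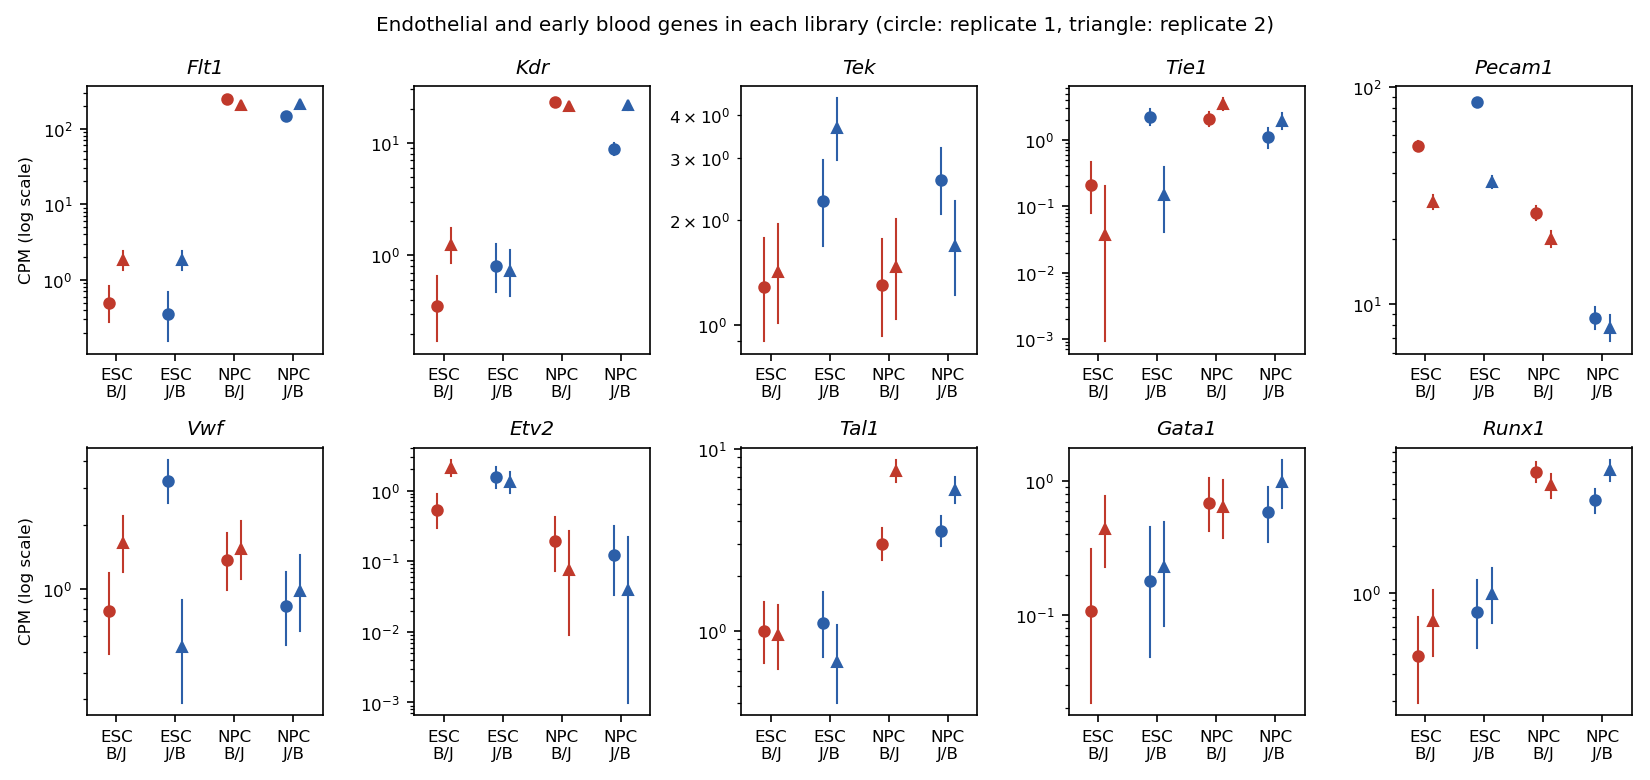
Level of each of the 10 genes in each library, in CPM on log axes that differ between panels, with circles for replicate 1, triangles for replicate 2, B/J in red and J/B in blue. Vertical lines are exact Poisson 95% intervals, which cover counting error only; *Flt1* sat between 147 and 247 CPM in NPCs and at or below 1.82 CPM in ESCs.

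*Flt1* (chr5:147498414-147662826, minus strand, GRCm39) made the largest change of the 10 genes. It was read in ESCs at 0.498 and 1.82 CPM in B/J and at 0.355 and 1.81 CPM in J/B. In NPCs it was read at 247 and 208 CPM in B/J and at 147 and 213 CPM in J/B. The stages were far apart in both lines, and NPC J/B replicate 1 was the lowest of the 4 NPC libraries. The log2 fold change was 7.01 (standard error 0.527, adjusted p = 3.50e-05), with 7.16 within B/J and 6.87 within J/B. NPC values rest on 4802 to 7619 reads and ESC values on 8 to 50 reads. *Flt1* alone held 77.3% to 83.0% of the reads on the 10 genes in NPCs, against 0.365% to 4.57% in ESCs. Both number 2 ESC libraries were above both number 1 ESC libraries.

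*Kdr* (chr5:76093487-76139884, minus strand) rose as well. It was read in ESCs at 0.356 and 1.24 CPM in B/J and at 0.799 and 0.717 CPM in J/B. In NPCs it was read at 23.2 and 21.4 CPM in B/J and at 8.81 and 21.5 CPM in J/B. All 4 NPC libraries were above all ESC libraries, and NPC J/B replicate 1 stood below its 3 companions. The log2 fold change was 4.09 (standard error 0.475, adjusted p = 1.90e-04), with 4.34 within B/J and 3.83 within J/B. Neither receptor lost its call in any of the 21 alternative settings, over which *Flt1* ranged from 6.39 to 8.34 and *Kdr* from 3.70 to 4.73.

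Neither angiopoietin receptor passed the test over both crosses. *Tek* (chr4:94627291-94763224, plus strand) was read in ESCs at 1.28 and 1.42 CPM in B/J and at 2.26 and 3.66 CPM in J/B. In NPCs it was at 1.30 and 1.47 CPM in B/J and at 2.60 and 1.68 CPM in J/B. The stages overlapped in both lines, and the log2 fold change was -0.69 (standard error 0.358, adjusted p = 0.119). Its highest value was in ESC J/B replicate 2.

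*Tie1* (chr4:118328385-118347261, minus strand), the partner receptor, was uneven between ESC libraries. It was read in ESCs at 0.214 and 0.0365 CPM in B/J and at 2.26 and 0.151 CPM in J/B, that is 51 reads in ESC J/B replicate 1 against 1 to 6 reads in the other 3. In NPCs it was at 2.11 and 3.50 CPM in B/J and at 1.10 and 1.95 CPM in J/B. The log2 fold change was 1.89 (standard error 0.858, adjusted p = 0.0813), and it was 3.41 (adjusted p = 0.00573) without ESC J/B replicate 1. Within B/J *Tie1* was called higher (3.95, adjusted p = 0.0357) and within J/B it was not (-0.18, adjusted p = 0.901). The B/J call was lost in 6 of 20 alternatives, each of them with a library left out, while the value stayed between 3.19 and 5.68.

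*Pecam1* (chr11:106543689-106641454, minus strand), the junction molecule also known as CD31, was the most abundant of the 10 genes per length in ESCs and fell. ESCs gave 53.5 and 29.6 CPM in B/J and 84.8 and 36.5 CPM in J/B. In NPCs it was at 26.3 and 19.9 CPM in B/J and at 8.65 and 7.81 CPM in J/B. The stages did not overlap, and both B/J NPC libraries were above both J/B NPC libraries. *Pecam1* fell by 2.35 on the log2 scale (standard error 0.339, adjusted p = 5.56e-04), called in all 21 alternatives. Within J/B it fell by 3.38 (adjusted p = 0.00136). Within B/J it was -1.32 (adjusted p = 0.0419), and this call was lost in 8 of 20 alternatives, with values of -1.71 to -0.79. *Pecam1* held 74.1% to 91.2% of the reads on the 10 genes in ESCs. The summed level of 8 pluripotency markers moved the same way, from 3544 to 5316 CPM in ESCs to between 92.8 and 249.9 CPM in NPCs, and all 8 fell, among them *Pou5f1* (-6.26), *Esrrb* (-6.12), *Tfcp2l1* (-5.86) and *Dppa3* (-5.78). Their part in the fall of *Pecam1* was not tested.

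*Vwf* (chr6:125523737-125663642, plus strand), made by mature endothelium and platelets, was read in ESCs at 0.783 and 1.64 CPM in B/J and at 3.24 and 0.528 CPM in J/B, and in NPCs at 1.36 and 1.54 CPM in B/J and at 0.826 and 0.976 CPM in J/B. All 4 NPC values lay inside the ESC range. The log2 fold change was -0.89 (standard error 0.607, adjusted p = 0.222). It was 0.06 (adjusted p = 0.922) without ESC J/B replicate 1 and -1.28 (adjusted p = 0.0373) without ESC J/B replicate 2, so single libraries set its direction and its call.

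Of the transcription factors, *Etv2* (chr7:30333027-30335943, minus strand) fell to near the limit of detection. ESC libraries gave 0.534 and 2.12 CPM in B/J and 1.55 and 1.32 CPM in J/B. In NPCs it was at 0.195 and 0.0752 CPM in B/J and at 0.122 and 0.0390 CPM in J/B, which is 6, 2, 4 and 1 reads. The stages did not overlap. It fell by 4.09 on the log2 scale (standard error 0.698, adjusted p = 0.00124), a value that rests on these few NPC reads.

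*Tal1* (chr4:114913623-114928952, plus strand), which acts with GATA factors at the start of blood formation, rose. Its ESC values were 0.997 and 0.948 CPM in B/J and 1.11 and 0.679 CPM in J/B. In NPCs it was at 3.02 and 7.60 CPM in B/J and at 3.55 and 5.97 CPM in J/B. The stages did not overlap, and within NPCs both number 2 libraries were above both number 1 libraries. The log2 fold change was 1.94 (standard error 0.437, adjusted p = 0.00486). With the libraries numbered 1 alone it was 1.15 (adjusted p = 0.113), and with those numbered 2 alone 2.59 (adjusted p = 0.00135).

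*Runx1* (chr16:92398354-92623037, minus strand), needed for definitive blood stem cells to emerge from endothelium, rose as well. In ESCs it was at 0.392 and 0.657 CPM in B/J and at 0.754 and 0.981 CPM in J/B. In NPCs it was at 6.00 and 4.89 CPM in B/J and at 3.91 and 6.13 CPM in J/B, with no overlap between stages. *Runx1* rose by 2.47 on the log2 scale (standard error 0.369, adjusted p = 6.24e-04), and by between 2.29 and 3.10 over the 21 alternatives.

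*Gata1* (chrX:7825499-7844310, minus strand), the red cell and platelet lineage factor, was below 1 CPM in every library. It was read in ESCs at 0.107 and 0.438 CPM in B/J and at 0.177 and 0.226 CPM in J/B, and in NPCs at 0.682 and 0.640 CPM in B/J and at 0.581 and 0.976 CPM in J/B. Every NPC library was above every ESC library, but the change of 1.13 on the log2 scale did not pass (adjusted p = 0.116, standard error 0.581). It passed when scaled by library totals (1.59, adjusted p = 0.0404) or by *Gapdh*, *Gusb* and *Tbp* (1.75, adjusted p = 0.0318). Those scalings also moved the median log2 change of all genes, from 0.17 to 0.65 and 0.80. The higher calls were then 70.1% and 75.0% of all calls, against 54.0%. *Tie1* likewise passed under both (2.39, adjusted p = 0.0373 and 2.59, adjusted p = 0.0286). Of the 10 genes, *Tal1*, *Gata1*, *Runx1*, *Etv2* and *Tie1* share between 106 and 330 exon bases with an annotated non-coding RNA of the opposite strand that the table did not count. The sources used here do not give the strand setting of the counting.

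**Figure D2:**
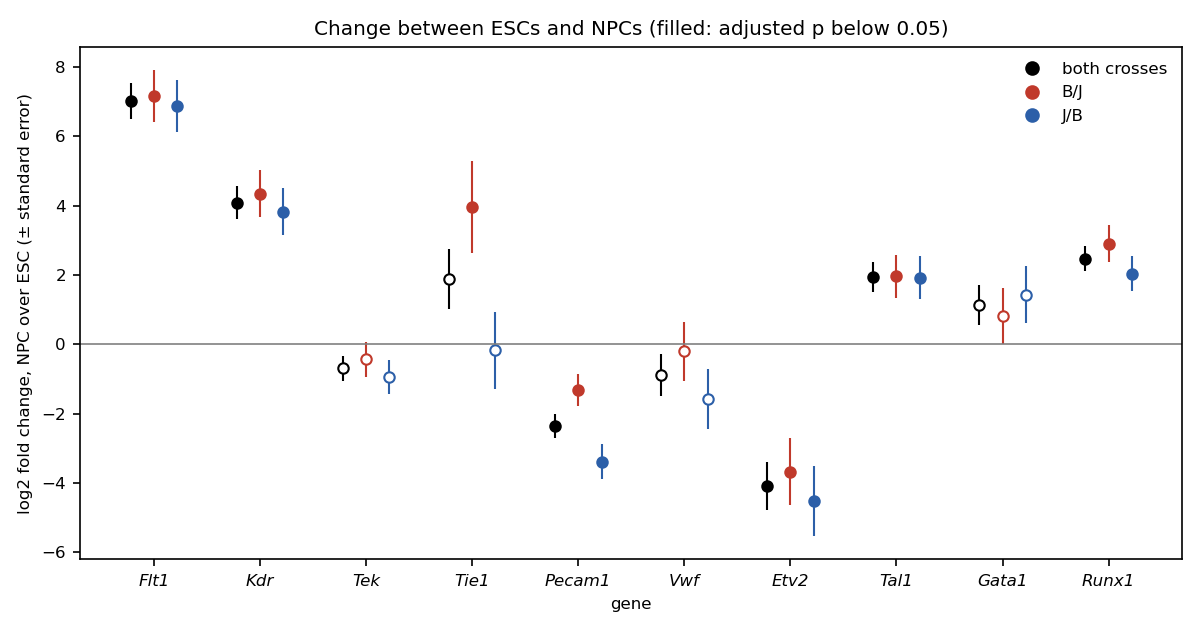
Log2 fold change from ESCs to NPCs with its standard error for each of the 10 genes, over both crosses (black), within B/J (red) and within J/B (blue), with filled points where the adjusted p was below 0.05. *Flt1* and *Kdr* lie far above 0 in both crosses, *Tie1* is 3.95 in B/J and -0.18 in J/B, and *Pecam1* is -1.32 in B/J and -3.38 in J/B.

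Within B/J 7 of the 10 genes were called, where 55.8% of all genes were, and within J/B 6 of 10, where 54.5% were. The additional gene in B/J was *Tie1*. The direct test of a different stage change between the crosses called none of the 10 and 0% of all genes, with an unadjusted p below 0.05 for 2 of the 10 and 573 genes in all (edgeR). Those 2 were *Pecam1*, with a difference of -2.06 (J/B minus B/J, unadjusted p = 0.0142), and *Tie1*, with -4.13 (unadjusted p = 0.0445). DESeq2 and limma-voom called none of the 10 either. Between J/B and B/J ESCs none of the 10 and 0% of all genes were called, with *Tie1* alone of the 10, and 346 genes in all, at an unadjusted p below 0.05 in edgeR (log2 difference 3.21, higher in J/B, unadjusted p = 0.0425, adjusted p = 1). Between J/B and B/J NPCs none of the 10 was called and 0.0061% of all genes, a single gene, was called. There *Pecam1*, and 1050 genes in all, had an unadjusted p below 0.05 in edgeR (log2 difference -1.55, lower in J/B, unadjusted p = 0.0118, adjusted p = 0.755). With a single line a cross, line and cross cannot be told apart.

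Levels were compared between genes per kilobase of the GENCODE canonical transcript. In ESCs *Pecam1* led at 13.9 ± 6.69 CPM per kb (SD, n = 4), followed by *Etv2* at 1.30 ± 0.618 CPM per kb, whose range did not meet that of *Pecam1*. From *Etv2* down to *Runx1*, the lowest at 0.119 ± 0.0416 CPM per kb, each gene's range overlapped that of the next. In NPCs *Flt1* led at 29.6 ± 6.07 CPM per kb, apart from *Pecam1* at 4.26 ± 2.45 CPM per kb, which overlapped *Kdr* at 3.17 ± 1.13 CPM per kb. *Tal1* (1.20 CPM per kb), *Runx1* (0.893), *Tie1* (0.529), *Gata1* (0.378) and *Tek* (0.356) followed with overlapping ranges. *Vwf* (0.133 CPM per kb) lay below the range of *Tek*, and *Etv2* (0.102 CPM per kb) overlapped *Vwf*. *Flt1*, first in NPCs, was sixth in ESCs, with a range that overlapped its neighbours there, and *Etv2*, second in ESCs, was last in NPCs.

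Of 12 ligands, co-receptors and further receptors of the same pathways, 9 were called higher and none lower, where 37.5% and 31.9% of all genes tested were. Their median log2 change was 2.75, beside 0.17 over all genes tested. Several of the 9, among them *Angpt1* and *Pgf*, passed the filter through NPCs alone and could hardly be called lower, so the count was in part set by the filter. *Vegfa*, the main ligand of both VEGF receptors, went from 14.7 to 238 CPM in the mean of 4 libraries (log2 change 3.53, adjusted p = 3.85e-05). *Pgf*, the placental growth factor that binds *Flt1* and not *Kdr*, went from 0.266 to 16.4 CPM (5.39, adjusted p = 3.21e-05). Its highest value, 30.1 CPM, was in NPC B/J replicate 1, which was also the highest for *Flt1*. *Nrp1*, a VEGF co-receptor that neurons use too for semaphorins, went from 1.05 to 42.5 CPM (4.80, adjusted p = 3.74e-05). *Angpt1*, the activating ligand of *Tek*, went from 0.136 to 10.2 CPM (7.80, adjusted p = 6.65e-05) while *Tek* itself was at 1.30 to 2.60 CPM in NPCs.

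Of 18 further endothelial genes 7 were higher and 7 lower, with a median log2 change of -0.10, beside 37.5% higher, 31.9% lower and a median of 0.17 over all genes tested. Some of the higher genes, among them *Cdh5* and *Fli1*, passed the filter through NPCs alone. With library totals or the 3 scaling genes the lower calls were 3. *Cdh5*, VE-cadherin of endothelial junctions, went from at most 0.266 CPM in ESCs to 880 and 454 CPM in B/J NPCs and 306 and 254 CPM in J/B NPCs (11.19, standard error 0.440, adjusted p = 9.20e-06). *Fli1*, an ETS factor of endothelium and blood, went from 0.0624 to 2.70 CPM (4.87, adjusted p = 9.84e-04). *Eng*, a TGF-β co-receptor, fell from 48.4 to 1.55 CPM (-5.53, adjusted p = 1.29e-05). *Robo4*, a guidance receptor of vessels, fell from 20.5 and 5.18 CPM in B/J ESCs and 84.8 and 5.66 CPM in J/B ESCs to between 0.978 and 2.11 CPM in NPCs (-4.59, adjusted p = 0.00248). Without ESC J/B replicate 1, which held 4 of the 6 ESC reads of *Fli1*, the change of *Robo4* was -3.05 and that of *Fli1* 7.18, both still called. *Eng* and *Robo4* thus went the way of *Pecam1*, and *Cdh5* and *Fli1* that of *Flt1* and *Kdr*.

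**Figure D3:**
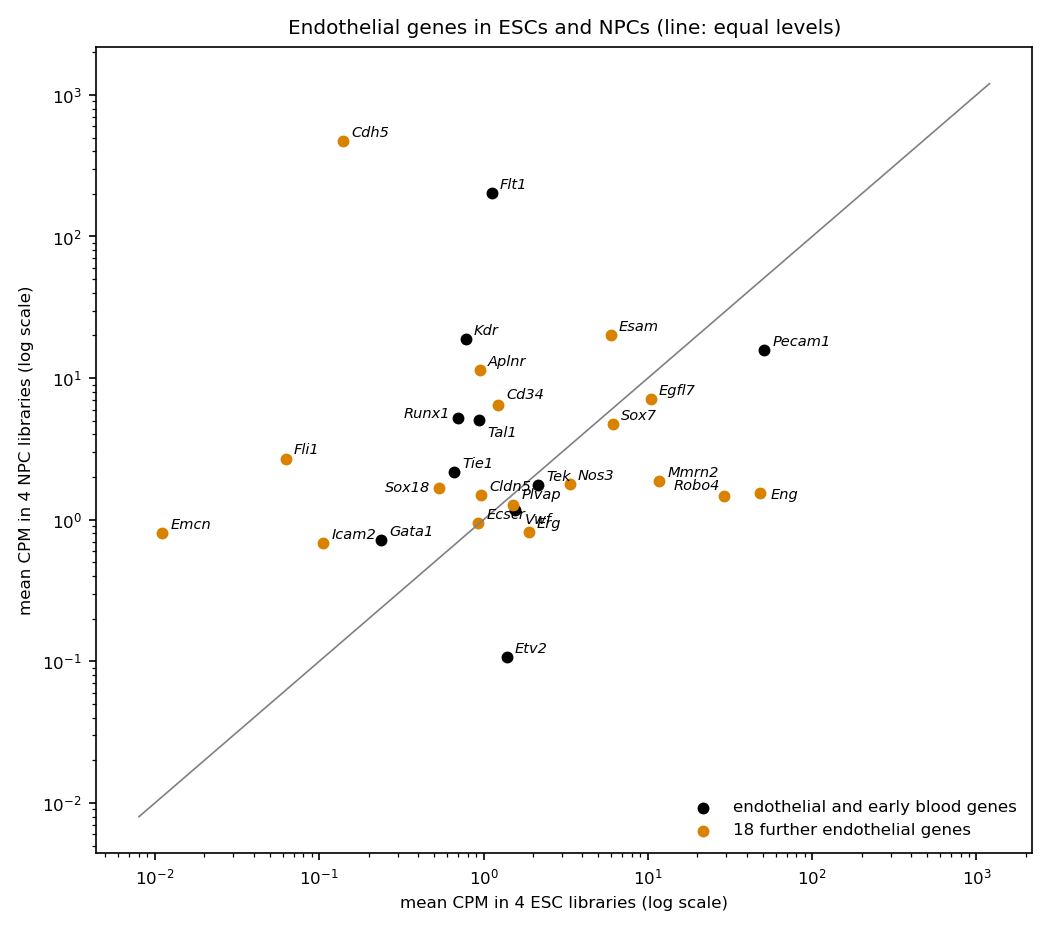
Mean level in the 4 ESC libraries (horizontal, CPM, log scale) and in the 4 NPC libraries (vertical, CPM, log scale) of the 10 genes (black) and of 18 further endothelial genes (orange), with a line of equal levels. *Cdh5* and *Flt1* stand high above the line, while *Pecam1*, *Eng*, *Robo4* and *Etv2* lie below it.

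Of 6 defining endothelial markers, all of them among the 18 above, 3 were higher in NPCs, 2 were lower and 1 did not pass. Over all genes tested 37.5% were higher and 31.9% lower. *Cdh5* and *Emcn* of the 3 passed the filter through NPCs alone and could hardly be called lower. *Cdh5* was higher, as above, and *Esam*, a junction molecule, was called higher (8.55 to 40.8 CPM in NPCs against 4.85 to 7.44 CPM in ESCs, log2 change 1.07, adjusted p = 0.0156), a call lost in 5 of 21 alternatives. The edgeR change of *Esam* was 1.82 within B/J (adjusted p = 0.0106) and 0.33 within J/B (adjusted p = 0.543). *Emcn*, a sialomucin of vessels, was also called higher (adjusted p = 0.00185), from 1 read in all 4 ESC libraries together to 20, 18, 19 and 34 reads in the NPC libraries, which is at most 1.33 CPM. *Cldn5*, the tight junction claudin of vessels, ranged from 0.577 to 1.42 CPM among ESCs and from 0.550 to 2.22 CPM among NPCs (0.04, adjusted p = 0.939). *Erg*, an ETS factor of endothelium, was lower (-1.75, adjusted p = 0.0468), a call lost in 11 of 21 alternatives, and *Robo4* fell as above. *Emcn* and *Cldn5* were named after their values were seen.

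Of 10 blood progenitor genes 5 could be tested, of which 3 were higher and 1 lower, and their summed level was 7.63 to 31.9 CPM in ESCs and 58.6 to 183 CPM in NPCs, where *Gata2* made up most of it. *Gata2*, used by blood progenitors, trophoblast and some neurons alike, went from 4.53 to 90.7 CPM (3.65, adjusted p = 3.62e-04), and *Lmo2*, the partner of *Tal1*, from 0.443 to 5.72 CPM (3.24, adjusted p = 0.00155). *Itga2b*, the platelet integrin CD41, went from 0.341 to 1.998 CPM (2.13, adjusted p = 0.00339), and *Ikzf1*, a lymphoid factor, fell from 6.02 to 0.694 CPM (-3.62, adjusted p = 5.84e-04). Both calls were lost with the libraries numbered 1 alone (adjusted p = 0.0662 and 0.0512). Of 12 red cell genes 6 could be tested, with 4 higher, namely *Epor* and 3 embryonic globins, and 2 lower. *Epor*, the erythropoietin receptor, was called higher at 27.0, 11.5, 11.5 and 6.60 CPM in NPCs, and *Slc4a1*, the red cell anion exchanger, fell from 1.09 to 0.0930 CPM (-4.26, adjusted p = 4.17e-04). The embryonic globins *Hba-x*, *Hbb-bh1* and *Hbb-y* together gave 0 reads in each ESC library and 44, 38, 23 and 1 reads in the NPC libraries, which is at most 1.43 CPM. They were named after their values were seen. With no ESC reads they passed the filter through NPCs alone and could only be called higher, so their 3 calls over both crosses add nothing to the red cell count, and within J/B none of the 3 was called (adjusted p = 0.0893, 0.157 and 0.231).

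Of the 6 defining blood markers none reached the filter for testing. *Ptprc*, the pan-leukocyte CD45, did not exceed 0.117 CPM in any NPC library or 0.222 CPM in any ESC library. *Spi1*, the myeloid factor, did not exceed 0.301 CPM among NPCs, and its highest ESC value was 1.02 CPM in ESC J/B replicate 1. The adult globins *Hba-a1*, *Hba-a2*, *Hbb-bs* and *Hbb-bt* were listed at 0 in all 8 libraries. Each has a near-identical copy, so these values are uncertain, and whether the alignment filter removed their reads was not tested. Of 5 megakaryocyte genes a single one, the platelet chemokine *Ppbp*, was tested. It passed the filter through NPCs alone and could hardly be called lower. It was called higher, from a mean of 0.0372 to 0.488 CPM (3.19, adjusted p = 0.0215), a call lost in 5 of 19 alternatives. Of 10 macrophage genes 3 were tested and 2 were higher. The 3 passed the filter through NPCs alone and could hardly be called lower. One was *Csf1r*, the macrophage growth factor receptor that trophoblast also makes, at 13.0, 11.7, 8.93 and 9.52 CPM in NPCs, at 0.666 CPM in ESC J/B replicate 1 and at 0 in the other ESC libraries.

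Markers of other cell types that make some of these genes moved with the stages too. All 12 trophoblast markers were higher in NPCs, 5 of them with no ESC reads and so able to be called only higher, with a median log2 change of 5.78, and their summed level went from 3.95 to 17.4 CPM in ESCs to 875 and 408 CPM in B/J NPCs and 483 and 313 CPM in J/B NPCs. *Tpbpa* and *Prl3b1*, made by placental trophoblast, had 0 reads in every ESC library and means of 272 and 47.9 CPM in NPCs, and the placental genes *Ctsq* and *Prl2c2* likewise went from 0 reads to means of 25.5 and 10.1 CPM. Of the 10 genes, *Flt1*, *Kdr*, *Pecam1* and *Etv2* had their highest NPC value in NPC B/J replicate 1, the library with the highest trophoblast sum, and the other 6 had it in another library. *Cdh5*, *Pgf* and *Epor* were also highest there, whereas *Vegfa*, *Nrp1* and *Angpt1* were highest in NPC J/B replicate 2, the library with the lowest sum. NPC J/B replicate 1, which ranked second in that sum, had the lowest NPC value of both *Flt1* and *Kdr*. The part of these markers in the rise of *Flt1*, *Kdr* and *Cdh5* was not tested.

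Of 9 mural cell genes, which mark the cells that wrap vessels, 8 were tested. Of these 7 were higher and none lower, where 37.5% of all genes tested were called higher. Several of the 7, among them *Rgs5*, *Abcc9* and *Vtn*, passed the filter through NPCs alone and could hardly be called lower. *Rgs5* went from 0.220 to 46.5 CPM (7.23, adjusted p = 9.20e-06) and *Pdgfrb* from 4.07 to 55.3 CPM (3.31, adjusted p = 0.00200). *Abcc9*, a channel subunit of pericytes, went from 0.0551 to 2.64 CPM (5.04, adjusted p = 4.78e-04), and *Vtn*, vitronectin, from 0 reads in every ESC library to 57.8 to 83.0 CPM in NPCs (adjusted p = 1.54e-05). Of 8 fibroblast genes 7 were higher, several of which likewise passed the filter through NPCs alone. The mean of the matrix gene *Col3a1* went from 3.76 to 929 CPM and that of *Lum* from 0.0422 to 90.8 CPM. The mean of *Postn* went from 0.198 to 26.5 CPM and that of *Col1a2* from 4.07 to 133 CPM. Most ESC reads of these genes were in ESC J/B replicate 1, with *Col1a2* at 16.0 CPM there and at most 0.151 CPM in the other 3, and the call of *Col1a2* was lost in 1 of 21 alternatives. In ESC J/B replicate 1 the summed fibroblast markers were 60.7 CPM against 4.09 to 10.03 CPM in the other 3. *Tie1*, *Vwf*, *Pecam1* and *Tal1* were also highest there among ESC libraries. So were most of the further endothelial genes, among them *Robo4*, *Eng*, *Erg*, *Cdh5* and *Fli1*. Without that library the log2 change of *Pecam1* over both crosses was -1.96 (adjusted p = 6.30e-04). Of 7 nascent mesoderm genes 2 were higher and 2 lower. *Mixl1*, which marks the primitive streak, fell from 4.48 to 0.149 CPM (-5.20, adjusted p = 0.00612). *Foxf1*, a factor of lateral mesoderm, rose from 0.0667 to 1.94 CPM (4.16, adjusted p = 0.00215), and *Tbx6*, a factor of paraxial mesoderm, from 0.499 to 1.84 CPM (1.46, adjusted p = 0.0114). The calls of *Mixl1* and *Tbx6* were each lost in 2 of 21 alternatives.

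For *Tal1* the neuronal genes beside which it is used were read as well. Of 7 genes of GABAergic neurons that use *Tal1*, 6 were higher and none lower, with a median log2 change of 3.86. Some of the 6, among them *Tal2* and *Gad2*, passed the filter through NPCs alone and could hardly be called lower. *Gata3* went from 0.592 to 46.5 CPM (5.69, adjusted p = 1.14e-04), *Tal2* from 0.124 to 7.97 CPM (5.60, adjusted p = 1.12e-04), *Gad2*, a GABA-making enzyme, from 0.255 to 16.3 CPM (5.46, adjusted p = 1.67e-04), and *Slc32a1*, the vesicular GABA transporter, from 0.409 to 8.46 CPM (3.86, adjusted p = 8.89e-04). Across the NPC libraries these genes did not share one order. The list's sum was highest in NPC B/J replicate 1 (276, 206, 107 and 166 CPM), as were *Gata2* and *Gata3*, whereas 4 of the 7, among them *Slc32a1* and *Gad2* (8.02, 19.4, 7.92 and 29.9 CPM), were like *Tal1* higher in both number 2 libraries. The blood genes *Lmo2* and *Itga2b* were also higher in both number 2 libraries, and *Gata2* of the same list was not. The part of these neurons and of blood cells in the rise of *Tal1* was not tested. Of 7 neural markers 6 rose. Among them, *Dcx* of young neurons (log2 change 10.86) and *Fabp7* (8.52) and *Hes5* (7.15) of neural precursors passed the filter through NPCs alone. *Sox1* of neural precursors (3.54) and *Nes* (2.09, adjusted p = 0.00194) rose too. *Pax6* did not pass (1.77, adjusted p = 0.0606) but was called in 8 of 21 alternatives. *Gata2* and *Gata3* of the GABAergic list are also in the blood progenitor and the trophoblast list.

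**Figure D4:**
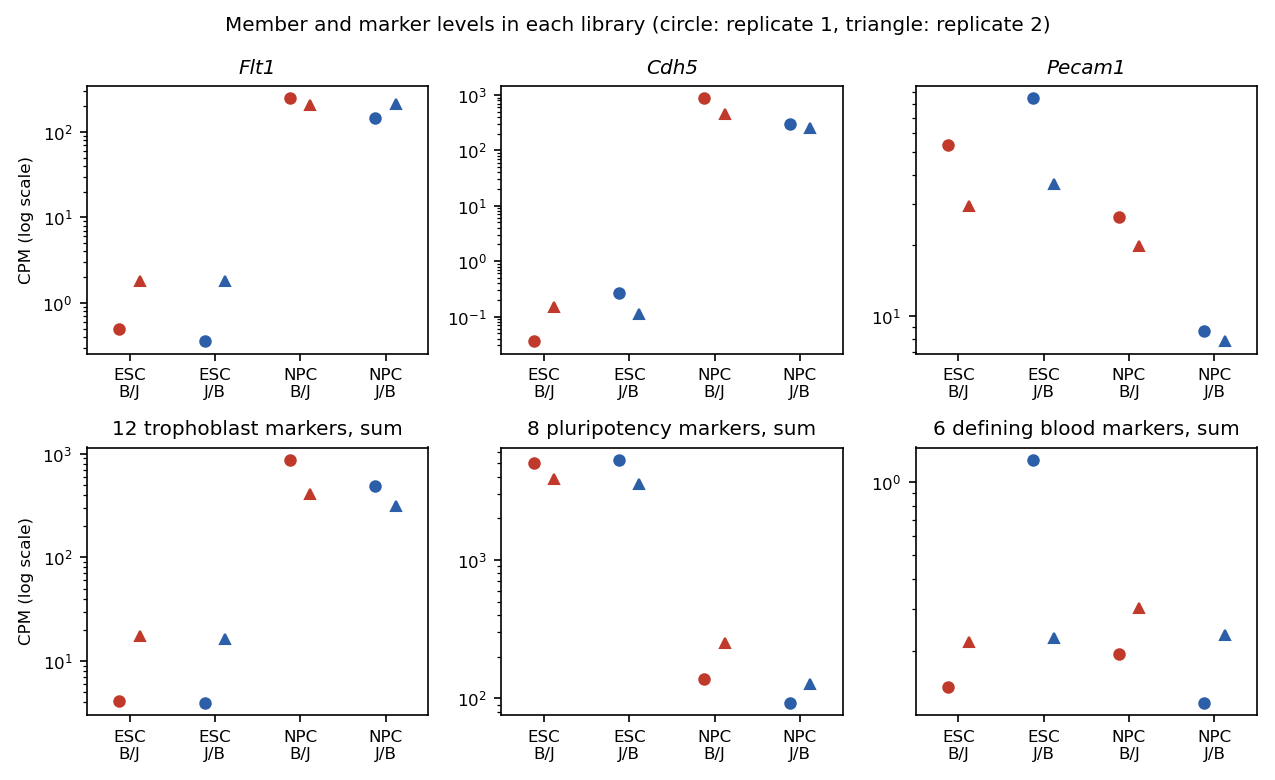
Levels in each library (CPM, log axes that differ between panels) of *Flt1*, *Cdh5* and *Pecam1* and, below them, the summed levels of 12 trophoblast, 8 pluripotency and 6 defining blood markers, with circles for replicate 1 and triangles for replicate 2. *Cdh5* and the trophoblast sum are both highest in NPC B/J replicate 1, *Pecam1* and the pluripotency sum fall, and the blood markers, of which only *Ptprc* and *Spi1* had any reads, are at or below 1.24 CPM in all libraries.

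The genes whose levels over the 8 libraries were most like those of the 3 members most abundant in NPCs were found among 14090 genes by Pearson correlation of log2(CPM + 0.5). For *Flt1* they were *Dusp22*, *Anks6* and *Tmem106b* (each r = 0.999). For *Kdr* they included *Pear1* (r = 0.997) and *Col26a1* (0.996), and for *Pecam1* they were *Srpr* (0.988), *Rab26* (0.986) and *Adnp2* (0.985). The libraries share stage, line and depth, and no p is given.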

How the data were processed

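Paired-end poly(A) RNA-seq libraries of 2 stages and 2 crosses, 2 per group, were used. The authors aligned reads with TopHat2 to mm39 with SNP positions masked and a refGene-based annotation, and filtered alignments to properly paired reads of mapping quality 20 or more. The submitters' processing notes list HTSeq, DESeq2 and edgeR. The sources used here do not give versions or the strand setting of the counting. The deposited values are raw counts per gene, with 5 closing entries naming no gene, left out. Libraries differ in kit and sequencer without a record of which.

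Counts were fitted with edgeR 4.0.16 in R 4.3.3 (4 group means, TMM, filterByExpr with minimum count 10, robust quasi-likelihood), with 16399 genes tested, adjustment over all of them and a threshold of 0.05. All 10 members passed the filter. DESeq2 1.42.0, limma 3.58.1 (voom), other scalings and filters, blocks and left-out libraries were alternatives. Where a library was left out, the remaining one of that group was taken to vary as the others do. CPM use the reads on genes; 1 read is worth 0.0306 to 0.0444 CPM. Exact Poisson intervals (95%) cover counting error only. Replicates differed by more than counting noise. Positions are from GENCODE vM39 (GRCm39), promoter windows from RefSeq's table (GRCm38.p6) matched to GRCm39. The tests were tested on simulated data.

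The members and the marker lists were chosen with earlier results of these data known. All members are named. From each list up to 4 genes called with the largest change and at least 1 CPM in a stage are named, or the 2 most abundant where none passes; *Nes*, *Pax6* and *Pou5f1* are named as checks of the stage labels. The 3 genes most like each of the 3 most abundant members in NPCs are named too. Of the genes these rules select, 2 are not reported here.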

Additional observations from a re-analysis of the deposited data

Results flagged for a closer look

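Each of the 10 genes was looked at in the 4 libraries of each stage for a library far from its companions. Of 20 such groups 2 had one, where chance gives about 1 in 20. *Kdr* was read at 8.81 CPM in NPC J/B replicate 1, against 21.4 to 23.2 CPM in the other 3 NPC libraries. *Tie1* was read at 2.26 CPM in ESC J/B replicate 1, against 0.0365 to 0.214 CPM in the other 3 ESC libraries. The log2 change of *Kdr* was called with and without NPC J/B replicate 1, whereas that of *Tie1* over both crosses was called with ESC J/B replicate 1 left out and not with it.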

How the results depend on the processing

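Of the stage changes of the 10 genes, over both crosses and within each, 551 values under the alternatives kept direction and side of the threshold, 30 lost a call, 9 gained one and 14 reversed. *Tie1* over both crosses was -0.084 with the libraries numbered 1 alone. Within J/B it was 0.34 with library totals, 0.68 with the 3 scaling genes, 0.83 with limma-voom and 0.19 with a replicate block, and between -1.08 and 2.86 as libraries were left out (2.86 without ESC J/B replicate 1, 0.16 without NPC J/B replicate 1). *Tek* within B/J was 0.032 with library totals and 0.076 with the scaling genes. *Vwf* within B/J was 0.26 and 0.30 under these. As libraries were left out, *Vwf* ranged from -0.62 to 0.39 within B/J (highest without ESC B/J replicate 2), from -1.28 to 0.060 over both crosses and from -2.36 to 0.32 within J/B (each lowest without ESC J/B replicate 2 and highest without ESC J/B replicate 1). The cause of these shifts was not tested. Members called within B/J were 3 to 7 as libraries were left out (3 without NPC B/J replicate 2, 4 without either ESC B/J library), and within J/B 3 to 6 (3 without NPC J/B replicate 2, where all genes called were 5700, against up to 8475). Of the 18 further endothelial genes 4 were higher with the libraries of either number alone, against 7. With a filter on a mean of 1 CPM, 1 member was lower, because *Etv2* was filtered out. Over all genes, the interaction gave 11 calls with DESeq2; J/B against B/J in ESCs gave 10 with DESeq2 and 2 without a filter; in NPCs it gave 70 with DESeq2, 5 without a filter, 4 with a replicate block within each stage (added after seeing the data), and 0 with library totals, the scaling genes, a replicate block or only the libraries compared, and 0 to 1 as libraries were left out.

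Same-numbered libraries deviated together within a stage (r = 0.631 in ESCs, 0.472 in NPCs) but not between stages (0.0372 to 0.0870), so the numbers do not pair ESCs with NPCs. With the replicate block 6 members were called between stages, as without it, and 12010 genes in all. Within each cross, the block inside each stage left 5 members called, without *Etv2* and *Tal1* in B/J and without *Tal1* in J/B. As all members were tested, the planned tests of an untested member were not run. Counts of 1 to 6 reads limit *Etv2* in NPCs and *Tie1* in 3 ESC libraries.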
